A study of Mus musculus with 8 samples.

Results

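The solute carriers are the membrane proteins whose gene symbols start with Slc and a family number, and they were taken here as every probe set of the Affymetrix MG U74Av2 array whose annotation gave 1 gene symbol of that form. The rule found 185 probe sets for 151 genes among 12422 probe sets tested, of which 10833 had 1 symbol. A further probe set that named Slc22a28 and Slc22a30 together was not a member. Of the members 3 genes, Slc4a1ap, Slc9a3r1 and Slc9a3r2, carry such a symbol but encode proteins that bind a carrier or its relatives and were kept apart as associated proteins.

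Spinal cord RNA came from female SJL/J mice, 8 to 12 weeks old by the labels and 8 weeks by the methods. The EAE group received a myelin proteolipid protein peptide under the skin. By the methods the peptide came in Complete Freund's Adjuvant with Mycobacterium tuberculosis, and pertussis toxin was injected into the peritoneum. The EAE mice were taken at an average grade of 2.5 by the labels, at days of EAE that ran from 12 to 17. The methods describe severe weakness or full paralysis of the hindlimbs. The control group received vehicle and is called healthy in the methods, which do not state whether it got adjuvant or toxin. The labels name an intravenous injection of mouse serum albumin for the EAE mice only, so its effect and that of EAE cannot be told apart. RNA of 2 animals was pooled for an array, so the 5 EAE arrays stand for 10 mice and the 3 controls for 6, and p values measure only the spread between such pools. Batches 1 to 3 held an array of each group and batches 4 and 5 an EAE array alone. The values are log2 signals normalized by the authors, and a fold change here is the limma estimate with batch as a fixed term. That estimate equals the mean of the 3 within-batch differences, so EAE arrays 4 and 5 did not enter it and serve as further arrays in the group ranges. A probe set was called when its p value, adjusted by Benjamini-Hochberg over all 12422 probe sets, was under 0.05.

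Solute carriers move small molecules across the plasma membrane and the membranes of vesicles, lysosomes and mitochondria, mostly along or coupled to gradients rather than by splitting ATP. In the central nervous system they load and clear neurotransmitters, bring glucose and amino acids across the blood-brain barrier, set the chloride and bicarbonate of neurons and glia, and distribute iron, copper and zinc. In macrophages a smaller group serves the phagosome and the supply of arginine. Because whole cord was measured, fewer cells of a type and less RNA per cell cannot be told apart in any value below.

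Of the 185 solute carrier probe sets, 11 were higher in EAE and 19 were lower, and 155 were not called. The shares were 5.95% and 10.3%, against 8.26% and 11.4% of all probe sets, so the share that rose or fell was near or under that of the array as a whole. The median log2 fold change of the members was -0.045, against -0.046 for all probe sets. At 2-fold or more, 3 probe sets rose and 0 fell, where 3.37% and 0.354% of all probe sets did, and these were Slc11a1, Slc31a1 and Slc7a7. Every EAE array lay above every control array for 14 members and below for 25, which is 7.57% and 13.5% of members against 10.9% and 15.1% of all probe sets. By gene, 10 rose and 18 fell, and no gene had probe sets called in both directions.

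**Figure D1:**
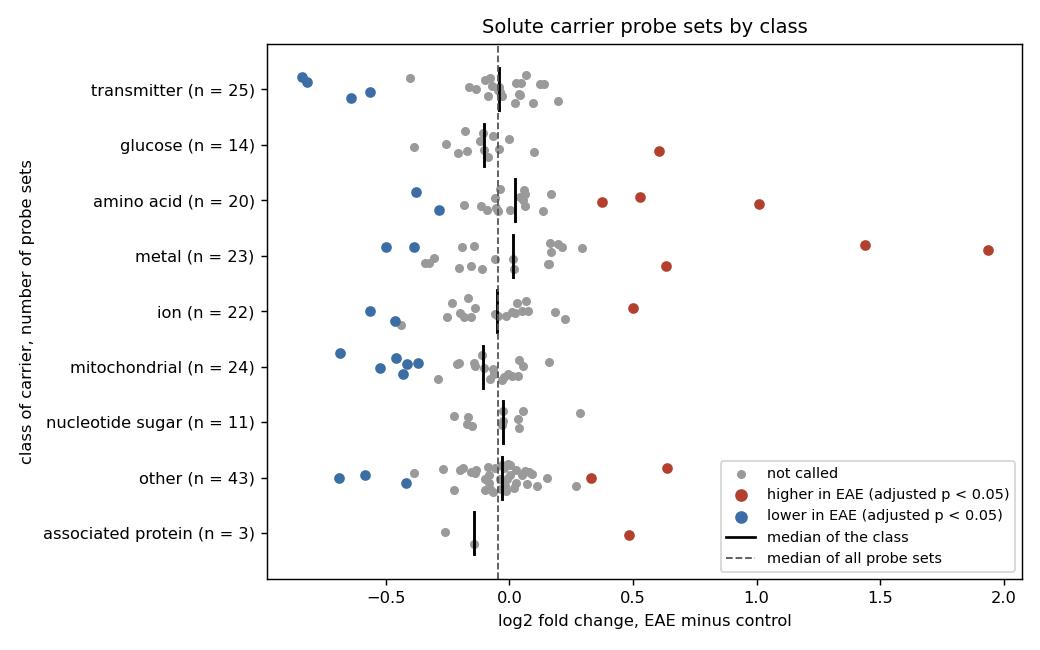
Log2 fold change, EAE minus control, of each of the 185 solute carrier probe sets (points), sorted into classes by family number; black bars are class medians and the dashed line is the median of all probe sets. Most points lie near 0, and the 3 probe sets above 1 are Slc11a1 and Slc31a1 among the metal carriers and Slc7a7 among the amino acid carriers. Mitochondrial and transmitter carriers have called probe sets on the lower side only.

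Calls were also counted in classes set by family number. Transmitter carriers gave 0 higher and 4 lower of 25 probe sets, glucose carriers 1 and 0 of 14, and amino acid carriers 3 and 2 of 20. Metal carriers gave 3 higher and 2 lower of 23, ion carriers 1 and 2 of 22, and mitochondrial carriers 0 and 6 of 24. The families grouped as other gave 2 and 3 of 43. Of all probe sets 8.26% were higher and 11.4% lower. The shares called lower were 25% of mitochondrial, 16% of transmitter, 10% of amino acid, 9.09% of ion and 8.7% of metal carriers. Those called higher were 15% of amino acid, 13% of metal, 7.14% of glucose and 4.55% of ion carriers. At an unadjusted limma p under 0.05, the directions without a call held 0 transmitter and 0 mitochondrial carriers that were higher and 2 glucose carriers that were lower. These counts are small and the differences between classes were not tested.

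The 2 carriers with the largest rise and the one with the largest fall are shown with the 250 bases before their gene start, from RefSeq on GRCm38.p6 and in the direction of the gene, because a reader may want to see whether the carriers with the largest changes share letters there. Slc11a1 lies at chr1:74374953-74375202, Slc31a1 at chr4:62360451-62360700 and Slc32a1 at chr2:158610508-158610757, all on the plus strand. Capitals mark a purine box, GAGGAA, or a GC box, GGGCGG, read on both strands.
Slc11a1: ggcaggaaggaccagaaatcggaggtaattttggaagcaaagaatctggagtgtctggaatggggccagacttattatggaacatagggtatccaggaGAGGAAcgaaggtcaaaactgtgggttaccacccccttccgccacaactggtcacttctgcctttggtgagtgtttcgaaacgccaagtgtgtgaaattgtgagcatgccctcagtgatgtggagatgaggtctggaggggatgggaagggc
Slc31a1: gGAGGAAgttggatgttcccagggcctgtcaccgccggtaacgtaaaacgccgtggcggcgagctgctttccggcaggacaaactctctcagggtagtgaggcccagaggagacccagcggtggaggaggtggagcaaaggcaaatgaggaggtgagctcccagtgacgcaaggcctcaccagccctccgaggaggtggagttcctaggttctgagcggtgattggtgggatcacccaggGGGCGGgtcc
Slc32a1: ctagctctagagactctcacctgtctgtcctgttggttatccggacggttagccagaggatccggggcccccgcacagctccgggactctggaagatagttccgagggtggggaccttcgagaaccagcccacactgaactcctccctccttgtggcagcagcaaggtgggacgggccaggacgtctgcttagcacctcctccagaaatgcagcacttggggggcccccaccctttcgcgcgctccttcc
Slc11a1 held a purine box and Slc31a1 both boxes, while Slc32a1 held neither of them nor the 4 other motifs searched. Of 151 member genes 124 had a promoter in the RefSeq table. A member was counted at the first listed start of its gene, whereas the share of all promoters counts every listed start of every gene. The shares that follow therefore set unlike sets side by side. The GC box stood in 57.3% of these and in 32.7% of the 32851 promoters of the table, and in 6 of the 9 promoters of genes that rose and 13 of the 16 of genes that fell. The purine box stood in 19.4% of member promoters and 23.3% of all, and in 2 that rose and 3 that fell. The E-box, CACGTG, stood in 10.5% of member promoters against 6.02% of all, the AP-1 motif, TGANTCA, in 6.45% against 6.75%, the metal response core, TGCGCNC, in 18.5% against 12.5%, and the cAMP response motif, TGACGTCA, in 0.806% against 1.55%. A match is a description of the letters in the window and the motifs were chosen with the fold changes known.

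Metal carriers held the members that moved most. Slc11a1, the natural resistance-associated macrophage protein that pumps divalent metals out of the phagosome, read 7.33, 7.21, 7.54, 7.46 and 7.39 in EAE arrays 1 to 5 and 5.50, 5.44 and 5.33 in control arrays 1 to 3. The groups were far apart and no array stood out. The rise was 1.94 ± 0.11 (SE) on the log2 scale, or 3.83-fold, with a 95% interval of 1.66 to 2.21 and an adjusted p of 0.000821 by limma. Within batches 1, 2 and 3 it was 1.82, 1.78 and 2.22.

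Slc31a1, the main copper importer of the plasma membrane, was measured by a pair of probe sets and rose on both. On 101877_at the EAE arrays read 9.05, 8.78, 8.54, 9.00 and 8.66 and the control arrays 7.47, 7.36 and 7.22, a rise of 1.44 ± 0.08 (SE) or 2.71-fold (limma, adjusted p = 0.000805). On 103845_at the EAE arrays spanned 7.14 to 7.53 and the controls 6.51 to 6.69, a rise of 0.63 ± 0.06 (SE; adjusted p = 0.00435 by limma). The groups did not overlap on either probe set, but the sizes differed, and with a pair of probe sets for 1 gene the size of its rise is uncertain.

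The zinc carriers of families 30 and 39 moved less. Slc30a9 of the zinc transporter family was called lower at -0.50 ± 0.07 (SE), with EAE arrays at 8.19, 8.29, 7.98, 8.74 and 8.64 against controls at 8.62, 8.91 and 8.42. Its groups overlapped, since EAE arrays 4 and 5 read above controls 1 and 3, and the adjusted p of 0.0133 by limma became 0.344 without the batch term. Slc39a3, a zinc importer, was lower by -0.39 ± 0.07 (SE), with EAE arrays from 5.64 to 6.08 and controls from 5.93 to 6.40, and its groups also overlapped (limma, adjusted p = 0.0241, or 0.121 without the batch term). Slc30a1, the zinc exporter of the plasma membrane, was not called at 0.29 (95% interval 0.07 to 0.52; limma, adjusted p = 0.0843), though its EAE arrays all lay above its controls. Without the batch term it passed, with an adjusted p of 0.0267 by limma.

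None of the other metal carriers was called by limma. At an unadjusted p under 0.05, 4 of these probe sets were lower, both of Slc30a3 and those of the zinc importers Slc39a6 and Slc39a9, which were named after their values were seen and stood at -0.32 (95% interval -0.62 to -0.03) and -0.19 (-0.35 to -0.03). Slc11a2, which takes up iron and other divalent metals, stood at 0.01 and 0.17 on its probe sets, and neither was called. The 2 probe sets of Slc30a3, which loads zinc into synaptic vesicles, stood at -0.30 (95% interval -0.54 to -0.07) and -0.20 (-0.39 to -0.01), those of Slc30a4 at -0.14 and -0.11, and those of the zinc importer Slc39a1 at 0.02 and 0.16, all not called. On a list for iron handling beside the carriers, 5 of 11 measured genes rose and 1 fell. The siderophore-binding Lcn2 rose by 5.97, the ferroxidase Cp by 3.72 and B2m, the light chain of MHC class I, by 2.77 on the log2 scale. The heme-degrading Hmox1 rose by 0.83 and Hfe by 0.67, and the ferroxidase Heph fell by 0.58. Fth1 at 0.27, Tfrc at 0.005, Ireb2 at -0.29 and Aco1 at -0.06 were among those not called. Of 4 metallothioneins, which bind zinc and copper, Mt1 rose by 1.38 and Mt2 by 1.14.

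**Figure D2:**
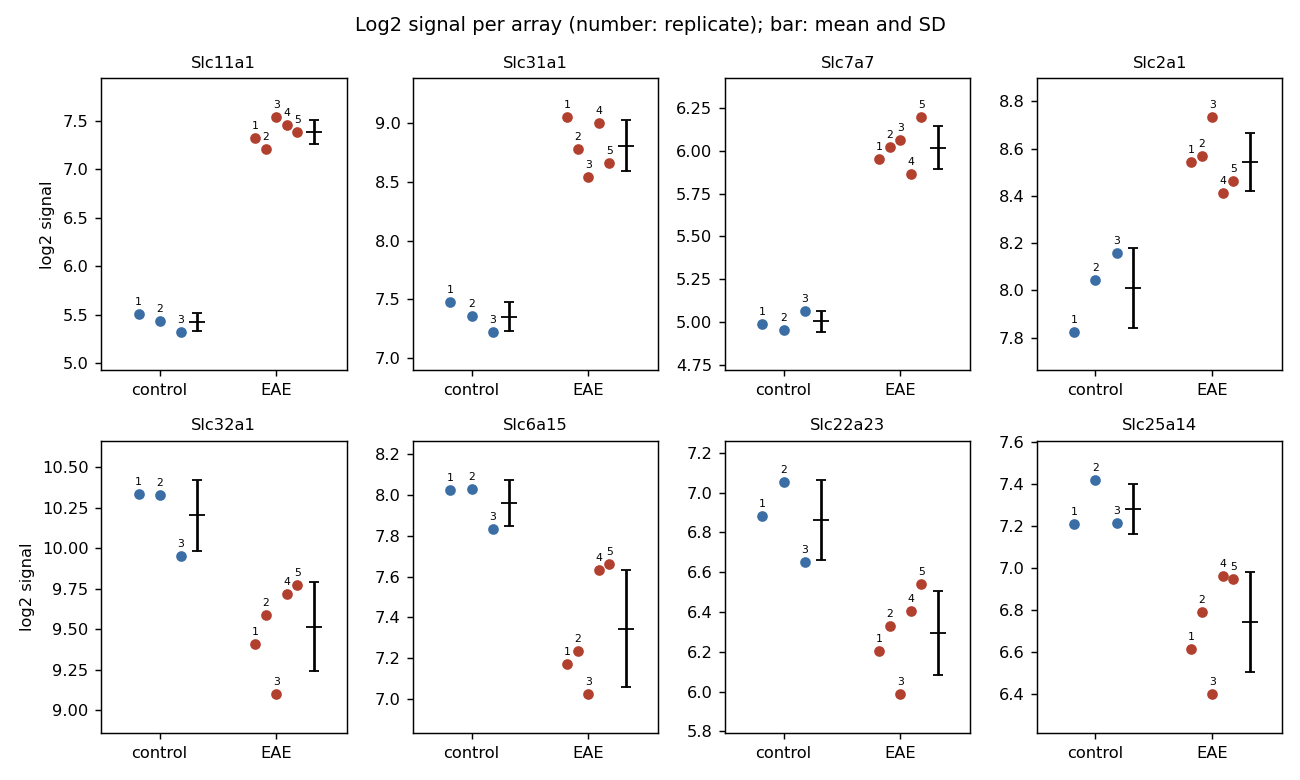
Log2 signal of 8 solute carriers on each array (points, numbered by replicate) in the 3 control and 5 EAE arrays, with the mean and SD beside each group; Slc31a1 is shown by probe set 101877_at and each panel has its own axis, which does not start at 0. In all 8 panels the groups do not overlap, and for the 4 carriers that fell EAE array 3 read lowest.

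Among amino acid carriers the members that rose included both chains of a known transporter. Slc7a7 is the light chain that exchanges arginine and lysine for neutral amino acids, and it works as a pair with the heavy chain Slc3a2. Slc7a7 read 5.95, 6.02, 6.06, 5.86 and 6.20 in the EAE arrays and 4.99, 4.95 and 5.07 in the controls, a rise of 1.01 ± 0.07 (SE) or 2.01-fold (limma, adjusted p = 0.00124). Slc3a2 read 9.48, 9.62, 9.32, 9.48 and 9.80 in EAE and 9.05, 8.86 and 8.94 in controls, a rise of 0.53 ± 0.10 (SE; limma, adjusted p = 0.0234). Slc7a2, the cationic amino acid carrier that supplies arginine to activated macrophages, spanned 5.96 to 6.26 in EAE and 5.68 to 5.74 in controls, a rise of 0.38 ± 0.08 (SE; limma, adjusted p = 0.0304). None of the 3 overlapped between groups.

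The other light chains that pair with Slc3a2 were not called higher. Slc7a5, the large neutral amino acid carrier of the blood-brain barrier, stood at 0.07 (95% interval -0.22 to 0.35), the cystine-glutamate exchanger Slc7a11 at 0.06 (-0.12 to 0.24) and Slc7a8 at 0.14 (-0.05 to 0.32). The EAE arrays of Slc7a8, at 5.06 to 5.25, nevertheless all lay above its controls, at 5.04 to 5.05. Slc7a6, a light chain with the same substrates as Slc7a7, was called lower on 99863_at at -0.28 ± 0.07 (SE), where EAE arrays from 4.43 to 4.77 overlapped controls from 4.75 to 4.98. Its adjusted p of 0.0431 by limma was 0.0636 without the batch term, and its other probe set at -0.18 was not called. The cationic carrier Slc7a1 stood at -0.04 (95% interval -0.20 to 0.13). Slc38a10 was lower on 160414_at by -0.38 ± 0.07 (SE), with EAE array 5 at 5.87 far under the other EAE arrays at 6.46 to 6.76 (limma, adjusted p = 0.0208, or 0.118 without the batch term). Its other probe set stood at -0.05.

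Genes of arginine metabolism were fixed as a list beside these carriers, and 4 of 9 rose while 0 fell by limma. At an unadjusted p under 0.05, 6 were higher and 0 lower. Arginase genes led the list, Arg1 by 4.47 and Arg2 by 2.01 on the log2 scale, and Sat1 and Odc1 of polyamine metabolism rose by 1.03 and 0.60. Nos2, the inducible nitric oxide synthase, stood at 0.475 and was not called (limma, adjusted p = 0.0572). Its EAE arrays ran from 4.775 to 5.225 and its controls from 4.411 to 4.524. Of 4 genes of glutathione synthesis 1, Gclc, which makes the first step, fell by 0.35.

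Markers of macrophages and microglia were also higher in EAE, 9 of 10 by limma (median log2 fold change 1.64). Their summed linear signal ran from 4101 to 6634 in EAE arrays and from 762 to 810 in controls. T cell markers were higher in 4 of 8 and endothelial markers in 2 of 9. Of the macrophage and microglia list Lyz2 rose most and read 10.22 to 11.67 in EAE and 4.75 to 5.05 in controls. Fcgr3, the marker of that list that was not called, stood at 0.06 on the log2 scale. The part of these cells in the rise of Slc11a1, Slc31a1, Slc7a7, Slc3a2 and Slc7a2 was not tested.

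Of the glucose carriers 1 rose. Slc2a1, the glucose transporter of the blood-brain barrier and of many activated cells, read 8.54, 8.57, 8.73, 8.41 and 8.46 in EAE and 7.83, 8.04 and 8.16 in controls. The groups did not overlap, and the rise was 0.61 ± 0.07 (SE), or 1.52-fold, with a 95% interval of 0.42 to 0.79 (limma, adjusted p = 0.00727). It missed the threshold without array 3 of either group, with an adjusted p of 0.0587 by limma. The neuronal Slc2a3 stood at -0.21 and -0.002 on its probe sets, the fructose carrier Slc2a5 of microglia at -0.10 and the sodium-glucose carrier Slc5a1 at -0.12, none of them called. Slc5a6, which carries vitamins rather than glucose but belongs to family 5, stood at -0.39 with groups that did not overlap (limma, adjusted p = 0.0629). Of 10 glycolysis genes, the hexokinase Hk2 rose by 1.55, Ldha by 0.99, and Ldhb fell by 0.50 on the log2 scale. Of the 9 endothelial markers 2 were higher and 0 lower by limma, and 2 were higher and 2 lower at an unadjusted p under 0.05, with a median log2 fold change of -0.03. Their summed linear signal was 972 to 1109 in EAE arrays and 764 to 879 in controls, and it includes Vwf, the von Willebrand factor gene, which alone rose by 2.17 on the log2 scale. Their part in the rise of Slc2a1 was not tested.

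Transmitter carriers that were called all fell, 4 of 25 probe sets or 16%, against 11.4% of all probe sets. Slc32a1, which loads GABA and glycine into the synaptic vesicles of inhibitory neurons, read 9.41, 9.59, 9.10, 9.72 and 9.78 in EAE and 10.33, 10.33 and 9.95 in controls. All EAE arrays lay below all controls, and the change of -0.84 ± 0.07 (SE), or 1.79-fold lower, had an adjusted p of 0.0028 by limma. Within batches 1, 2 and 3 the difference was -0.93, -0.74 and -0.85.

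Slc6a15 is a carrier of branched-chain amino acids and proline in neurons that stands among the transmitter carriers by its family number only. It read 7.17, 7.23, 7.02, 7.63 and 7.66 in EAE and 8.02, 8.03 and 7.83 in controls, a change of -0.82 ± 0.06 (SE; limma, adjusted p = 0.00208). EAE arrays 4 and 5, which had no control in their batch, were the closest to the controls and still below them.

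Slc6a9, the glycine transporter that glia use to clear glycine, read 8.66, 8.92, 8.79, 8.89 and 8.90 in EAE and 9.08, 9.43 and 9.78 in controls. The EAE arrays lay close together and the controls spread over a wider range, and the change was -0.64 ± 0.13 (SE; limma, adjusted p = 0.0286). Slc1a1, the neuronal glutamate transporter, fell on 104747_at by -0.56 ± 0.10 (SE; limma, adjusted p = 0.0198), with EAE arrays at 6.50 to 6.99 and controls at 7.15 to 7.38. On its other probe set, with a mean below the median level of all probe sets, it stood at -0.08 and was not called.

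The remaining transmitter carriers did not pass the test. The glial glutamate transporter Slc1a2 stood at 0.20 (95% interval -0.03 to 0.42), the neutral amino acid carrier Slc1a4 at -0.17 (-0.35 to 0.02) and the vesicular acetylcholine transporter Slc18a3, a marker of motor neurons, at -0.40 (-0.83 to 0.02). The value of Slc18a3 was -0.17 without array 1 of either group and -0.58 without array 3 of either group. The 2 probe sets of the creatine transporter Slc6a8 stood at -0.13 and 0.04. Slc1a3, Slc6a11, Slc17a6, Slc17a7 and Slc18a2 were on the list and not analysed here, nor were Slc15a3 and Slc40a1 of other classes. Of 6 measured genes of glutamate and GABA metabolism 3 fell: the GABA-synthesizing Gad1 by 0.68 and Gad2 by 0.36, and glutamate dehydrogenase, Glud1, by 0.66 on the log2 scale.

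Some neuronal markers were also lower in EAE. Of 9 measured 4 were lower by limma and 7 at an unadjusted p under 0.05, with a median of -0.47, and their summed linear signal was 6850 to 7809 in EAE and 10176 to 10479 in controls. Oligodendrocyte markers were lower in 3 of 8 with a median of -0.36, and astrocyte markers were lower in 3 of 9 and higher in 1. Their part in the lower transmitter carriers was not tested.

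**Figure D3:**
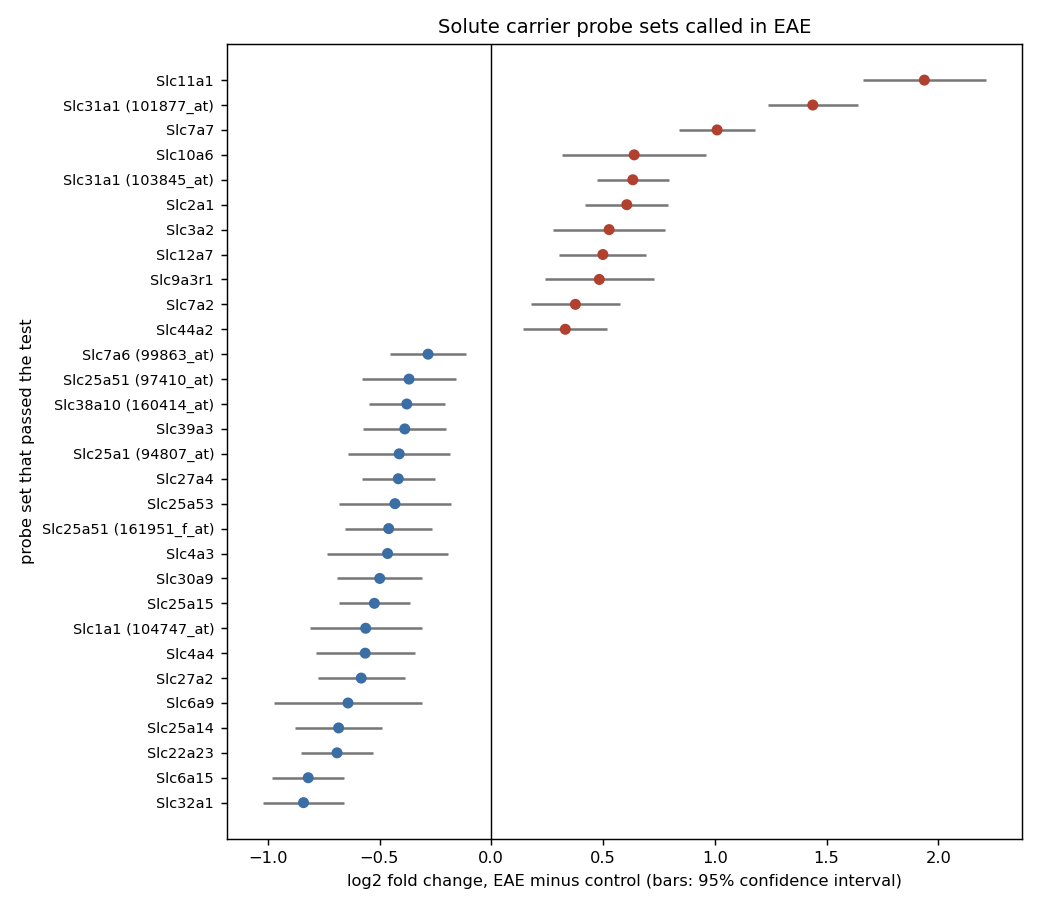
Log2 fold change, EAE minus control, of the 30 solute carrier probe sets that passed the test (points) with 95% confidence intervals (bars) from limma; red points are higher in EAE and blue points lower. Of the 11 that rose 3 are above 1, and the 19 that fell lie between -0.84 and -0.28.

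Ion carriers were called in both directions. Slc12a7, a potassium-chloride cotransporter, read 6.07, 6.05, 5.93, 6.19 and 5.95 in EAE and 5.54, 5.45 and 5.57 in controls, a rise of 0.50 ± 0.08 (SE; limma, adjusted p = 0.0137). Slc4a4, the sodium-bicarbonate cotransporter of astrocytes, read 7.39, 7.32, 7.60, 6.57 and 7.50 in EAE and 8.14, 7.82 and 8.04 in controls, a change of -0.56 ± 0.09 (SE; limma, adjusted p = 0.0139). EAE array 4 was far below the rest, and it also had the largest difference between the 3' and 5' Gapdh control probe sets, 2.07 against 0.46 to 1.46 on the other arrays. EAE array 4 did not enter the estimate. EAE array 1, which did, had the next largest Gapdh difference, 1.46 against 0.53 on control array 1. In batches 2 and 3 the EAE array had the smaller difference of the pair. The fall of Slc4a4 was -0.75 within batch 1 and -0.50 and -0.44 within batches 2 and 3. The part of RNA quality in these values was not tested. Slc4a3, an anion exchanger of neurons, fell by -0.46 ± 0.11 (SE; limma, adjusted p = 0.0393), with EAE arrays from 7.52 to 8.20 and controls from 8.25 to 8.55.

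Slc12a2, the sodium-potassium-chloride cotransporter, was below every control on every EAE array, with means of 9.79 ± 0.21 (SD, n = 5) and 10.29 ± 0.12 (SD, n = 3). Its change of -0.44 was not called (limma, adjusted p = 0.102) and passed without the batch term (0.0201). The neuronal chloride exporter Slc12a5 stood at -0.04 (95% interval -0.21 to 0.12). The red cell and kidney anion exchanger Slc4a1 stood at 0.07, its relative Slc4a2 at -0.18 and the phosphate carrier Slc20a1 at -0.14, all not called, and of the 3 red blood cell markers measured none was called by limma and 1 was higher at an unadjusted p under 0.05. The sodium-calcium exchanger Slc8a1 had 3 probe sets at -0.17, 0.08 and 0.18. Of the sodium-potassium pump, which makes the gradient that many of these carriers use, 3 subunit genes were measured and Atp1b1 fell by 0.48 on the log2 scale.

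Every call among the mitochondrial carriers of family 25 was lower, 6 of 24 probe sets. That is 25% against 11.4% of all probe sets and 18.6% of those above the median level, where 21 of the 24 lie. Slc25a14, a brain member of the uncoupling protein group, read 6.61, 6.79, 6.40, 6.96 and 6.95 in EAE and 7.21, 7.42 and 7.22 in controls, a change of -0.68 ± 0.08 (SE; limma, adjusted p = 0.00605). Slc25a15, which brings ornithine into mitochondria, read 7.23, 7.15, 6.91, 7.25 and 7.14 in EAE and 7.74, 7.68 and 7.44 in controls, a change of -0.52 ± 0.06 (SE; limma, adjusted p = 0.0073). Neither overlapped between groups. Of the 6 calls that of Slc25a14 alone passed with every array left out, and Slc25a15 missed it without array 3 of either group (limma, adjusted p = 0.0604).

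Smaller falls were seen for the other called members of the family. The 2 probe sets of Slc25a51, the mitochondrial NAD carrier, fell by -0.46 ± 0.08 and -0.37 ± 0.08 (SE), and the first of them, 161951_f_at, has a suffix that marks probes shared with other transcripts and overlapped between groups. Slc25a53 fell by -0.43 ± 0.10 (SE), with EAE arrays from 6.54 to 6.79 and controls from 6.97 to 7.20. Slc25a1, the citrate carrier that supplies fatty acid synthesis, fell on 94807_at by -0.41 ± 0.09 (SE), while its other probe set stood at -0.06. The calls of Slc25a1 on 94807_at and Slc25a51 on 97410_at were lost with an intensity trend and with further quantile normalization. The adenine nucleotide carrier Slc25a4 stood at -0.21 (95% interval -0.42 to -0.002; limma, adjusted p = 0.149).

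The remaining families held 2 probe sets that rose and 3 that fell. Slc10a6, a carrier of sulfated steroids, read 6.82, 7.08, 6.48, 7.07 and 7.42 in EAE and 6.23, 6.12 and 6.11 in controls, a rise of 0.64 ± 0.13 (SE; limma, adjusted p = 0.0270). Its within-batch differences ran from 0.37 to 0.96. Slc44a2, a choline transporter-like protein, stood higher by 0.33 ± 0.07 (SE), with groups that overlapped (limma, adjusted p = 0.0367, or 0.183 without the batch term). The associated protein Slc9a3r1, a scaffold that binds membrane proteins, stood higher by 0.48 ± 0.09 (SE), also with overlap (limma, adjusted p = 0.0269, or 0.114 without the batch term).

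Slc22a23, a carrier of family 22 whose substrate is not known, read 6.20, 6.33, 5.99, 6.41 and 6.54 in EAE and 6.88, 7.05 and 6.65 in controls. No EAE array reached the lowest control, and the change was -0.69 ± 0.06 (SE; limma, adjusted p = 0.00364). Family 27 activates and takes up fatty acids, and 2 of its 5 probe sets fell, where 11.4% of all probe sets did. This count is small and was not tested. Slc27a2 was lower by -0.58 ± 0.08 (SE; limma, adjusted p = 0.00925), with EAE arrays from 5.27 to 5.57 and controls from 5.78 to 6.10, and Slc27a4 by -0.42 ± 0.06 (SE; limma, adjusted p = 0.0136), with EAE arrays from 5.84 to 6.33 and controls from 6.46 to 6.74. The lactate carrier Slc16a1 at 0.27 (95% interval 0.01 to 0.53) and the carnitine carrier Slc22a5 at -0.20 were not called. The nucleotide sugar carriers of family 35 had no call among 11 probe sets by limma, and 1 was higher and 2 lower at an unadjusted p under 0.05. The brightest of them were Slc35b1 at 0.29 (95% interval 0.09 to 0.49; limma, adjusted p = 0.0649) and Slc35g3 at -0.03 (-0.20 to 0.14).

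**Figure D4:**
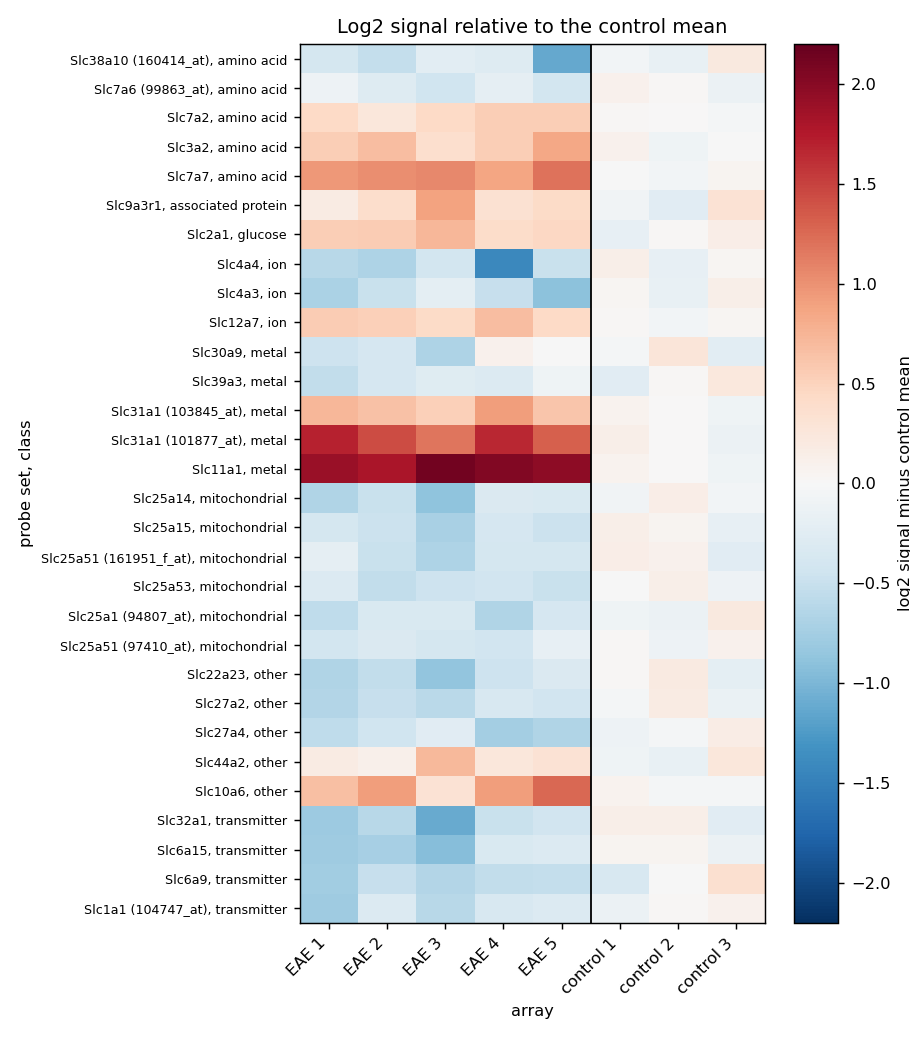
Log2 signal minus the control mean for the 30 called solute carrier probe sets (rows, with their class) on the 5 EAE and 3 control arrays (columns); red is above and blue below the control mean. Slc11a1 is the deepest red on all 5 EAE arrays, followed by Slc31a1 on 101877_at, while Slc31a1 on 103845_at is paler. Slc30a9 is near 0 on EAE arrays 4 and 5.

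Averaged over the 19 that fell, the EAE arrays lay between -0.56 (array 3) and -0.43 (array 5) from the control mean, and over the 11 that rose between 0.76 and 0.85. These averages describe members chosen for their calls. With each array left out in turn, 9 of the 30 passed every time, Slc11a1, both Slc31a1 probe sets and Slc7a7 among the higher and Slc32a1, Slc6a15, Slc22a23, Slc25a14 and Slc27a2 among the lower. Without array 3 of either group 4 rose and 5 fell, without array 2 of either group 5 rose and 9 fell, and without array 1 of either group 8 rose and 15 fell. Of all probe sets 521 rose and 225 fell without array 3, and 710 and 571 without array 2. Without array 1 these were 900 and 983, against 1026 and 1412 with all arrays. The highest adjusted p (limma) of the other 21 called members ran from 0.0587 for Slc2a1 to 0.183 for Slc25a51 on 97410_at. Further quantile normalization also ended the calls of Slc6a9, Slc4a3 and Slc44a2.

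Of the 155 probe sets that were not called, the log2 fold changes ran from -0.44 to 0.29. Each of these had a 95% interval inside 2-fold in either direction, and 144 had one inside 0.5 on the log2 scale. An unadjusted p under 0.05 was found for 20 of them. With the called ones included, 14 members were higher and 36 lower of 185 at that level, against 1498 and 2587 of 12422 probe sets. Of 29 genes with more than 1 probe set, 6 had a called one and 2, Slc31a1 and Slc25a51, had all called.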

How the data were processed

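RNA of whole spinal cord was measured on 8 Affymetrix MG U74Av2 arrays, 5 EAE and 3 control, and the deposited log2 values are those the authors made in Partek Genomics Suite with RMA, quantile normalization and an adjustment for GC content (versions not given in the sources used here). They were not normalized again. Groups and batches came from the sample labels. Batch equals replicate number and the labels tie a batch to a shared day, so the numbers pair the arrays of batches 1 to 3; correlations of their deviations from the group means were 0.302, -0.231 and 0.412.

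The fit used limma 3.58.1 in R 4.3.3 (lmFit, eBayes), two-sided, with fixed terms for treatment and batch (residual degrees of freedom 2, prior 3.05). The 66 control probe sets did not enter, dim probe sets were kept, and p values were adjusted over 12422 probe sets. The linear model without moderation is the method stated for the study and was run as an alternative. All 185 member probe sets matched the gene table of GRCm38.p6 by Entrez identifier, with 0 symbols changed. Classes were set by family number, and for the marker and pathway lists a gene was taken at its brightest probe set.

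The members, classes and lists were chosen with earlier results of these data known. Named in the text are 34 measured carriers of a fixed list of 43, those past 2-fold, and per class up to 4 that rose and 4 that fell; Slc5a6, Slc25a1, the second probe set of Slc25a51, the associated proteins and the partner genes were added where their class or list is described. The fit was repeated with batch left out, with batch as a random block, with no moderation, with an intensity trend, median centring, further quantile normalization, brighter probe sets only, 1 probe set per gene, array weights, a threshold of 0.01 and each array left out. RNA quality was checked with the Gapdh and beta-actin control probe sets, and the procedure was tested on simulated data. Precision is limited by the number of arrays. Plots were made with matplotlib 3.10.9.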

Additional observations from a re-analysis of the deposited data

Results flagged for a closer look

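Of 64 groups of 5 EAE values of named probe sets, 3 had 1 array further from the others than Dixon's critical value of 0.71 of the range allows, and chance gives about 1 in 20. Slc11a2 on 104451_at read 7.40 on EAE array 3, below the other EAE arrays. Slc20a1 read 8.93 on the same array, again the lowest of the 5. Slc4a4 read 6.57 on EAE array 4, the array with the largest difference between the 3' and 5' Gapdh control probe sets, and array 4 does not enter its estimate. The cause was not tested in any of the 3.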

How the results depend on the processing

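Without the batch term (no replicate block for the pairs) 10 solute carrier probe sets were higher and 18 lower, against 11 and 19; glucose carriers lower went from 0 to 1, amino acid and metal carriers lower from 2 each to 0. The cause was not tested for these or the values that follow. With batch as a random block glucose carriers lower were 1, amino acid lower 1, metal lower 0 and ion lower 4. Of all probe sets 1062 were higher and 1278 lower without the batch term, and 1205 and 1657 with the random block. Without moderation of the variances 0 solute carriers passed in either direction or in any class, and of all probe sets 1 was higher and 0 lower. At an unadjusted p under 0.05 by that linear model, 10 solute carrier probe sets were higher and 21 lower. At an adjusted p under 0.01, 5 were higher and 6 lower, with transmitter lower 2, amino acid higher 1 and lower 0, metal lower 0, and ion higher 0 and lower 0. Of all probe sets 540 were higher and 290 lower at 0.01, against 1026 and 1412 at 0.05. Brighter probe sets alone gave glucose lower 1, amino acid higher 1 and lower 1, metal lower 1 and ion higher 0. Of all probe sets 714 were then higher and 1233 lower. Median centring gave glucose lower 1, an intensity trend ion lower 4 and further quantile normalization ion lower 1. For all probe sets these 3 settings gave 970 and 1710, 1082 and 1365, and 993 and 1204.

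With each array left out, 4 to 11 were higher and 5 to 19 lower. By class the ranges were transmitter lower 2 to 4, glucose higher 0 to 1 and lower 0 to 1, amino acid higher 1 to 3 and lower 0 to 2, metal lower 0 to 2, and ion higher 0 to 1 and lower 0 to 2. Metal carriers higher stayed at 3. With 2 residual degrees of freedom the fit leans on the variances of all probe sets, and leaving out an array of a pair drops that pair. Leaving out EAE array 4 or 5 changed no value of the fit with the batch term.

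Single values that changed sign were all uncalled and near 0: Slc11a2 on 102642_at gave -0.020 with median centring and -0.029 to 0.054 with an array left out, Slc2a3 on 92292_at 0.013 with array weights and -0.071 to 0.096, and Slc39a1 on 100373_at -0.016 with median centring, -0.010 with quantile normalization and -0.018 to 0.044. Slc6a8 on 97748_at ran from -0.017 to 0.098 and Slc7a5 from -0.060 to 0.191 with an array left out. Of 1065 named values compared, 159 lost a call, 5 gained one and 14 changed sign.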
